A study of Rattus norvegicus with 20 samples.

Results

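The genes described here are 37 pan-neuronal genes, genes active in most neurons and named for the neuron's cytoskeleton, synaptic vesicles, dense-core vesicles and RNA-binding proteins. They were measured in RNA of the whole mesenteric artery, the vessel bed that feeds the intestine, on 20 single-colour rat arrays. The 37 were a given list, chosen by their signals on these arrays and their differences from the untreated controls, so those differences are described and support nothing. Each gene was read from the probes that carry its symbol, and the probe of the highest mean over the 20 arrays stood for it. All 37 had a probe, out of 26242 gene names on the array. Of these, 22 passed the filter on dim probes (flagged well above background in all 4 replicates of some group) and stood among the 16424 genes tested. The other 15 (Snap25, Elavl2, Elavl3, Elavl4, Nefl, Syt1, Syt4, Syn1, Syn2, Ina, Chga, Scg2, Vgf, Ret and Rab3c) are described without a test. The labelled tissue was checked on 10 smooth muscle and 10 endothelial marker genes. All were well above background on every array, apart from 1 smooth muscle gene on 1K1C replicate 2.

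The 5 groups held 4 arrays each. Untreated WKY/Izm rats, a normotensive Wistar-Kyoto strain, were the controls. WKY/Izm rats with 2K1C (2-kidney 1-clip) and with 1K1C (1-kidney 1-clip) had a clip placed as a model of renovascular hypertension, with both kidneys or 1 kidney left. SHR/Izm and SHRSP/Izm are the spontaneously hypertensive rat and its stroke-prone substrain, both untreated. The labels give 6 weeks of age for every rat and 3 weeks with or without operation for the WKY groups, and whether the rats were operated on or sampled at 6 weeks is not settled. Replicates are called biological, with no word on litters or pooling, so p-values measure the spread between these samples.

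As background, arteries of the gut are wrapped by axons whose cell bodies lie elsewhere, in sympathetic and sensory ganglia, while neurons of the gut wall form the enteric ganglia. Most messenger RNA of a neuron sits in its cell body, and the genes listed here are standard marks of neurons as a class. Noradrenergic enzymes and transporters mark sympathetic neurons, and peptides such as those of the Vip, Gal and Tac1 genes mark many enteric and some sensory neurons.

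Levels are log2 of the processed signal over the array's own 75th percentile, so 0 is that percentile and each unit is a doubling. They compare arrays for 1 gene, not genes with each other, since probes differ in brightness. In whole-tissue RNA, fewer cells of a type and less RNA per cell cannot be told apart. Precision is limited by how few arrays there are.

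The probes are 60-base oligos, and the first 30 bases of some of those the results turn on are given as the array files hold them, with positions on rn4. The positions are those of the array design, and exon and UTR annotation of that build was not used here. Snap25 is shown with both of its probes because both had the same 4 arrays on top, and the Elavl2 and Elavl4 probes because these near relatives behaved differently although their probes share at most 6 bases in a row.
Prph, chr7:137839568-137839627, plus strand: acagagtctcagaaggagcagcacagtgaa
Gap43, chr11:60083320-60083379, plus strand: cctaaggaaagtgcccgacaggatgagggt
Snap25, chr3:124893776-124893835, plus strand: ttcttgtaaaactgtgacattccacagagc
Snap25 second probe, chr3:124893320-124893379, plus strand: aacaaaaccagaattgatgaagccaaccaa
Elavl2, chr5:111179274-111179333, minus strand: gtgctgaagtgaacaagcgagttttcatgc
Elavl4, chr5:131672015-131672074, minus strand: gcctaagtattaaaacattggattatcctg
Uchl1, chr14:44114392-44114451, minus strand: tacggccttggatgtggtttgtctagtcct

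The neuronal genes were high on 4 of the 20 arrays: untreated WKY replicates 1, 2 and 3 and 2K1C replicate 1. Among these are 3 of the 4 controls, and the median differences from untreated WKY are therefore given with and without these 4 arrays. Untreated WKY replicate 1 was the highest array for 35 of the 37 genes. For 30 of the 37, these 4 arrays were exactly the 4 highest. Untreated WKY replicate 4 was the lowest of its group for 36 genes. As a median over the 37 genes, the deviation from each gene's median level was 6.23 on untreated WKY replicate 1, 3.45 on replicate 3, 2.44 on replicate 2 and 2.87 on 2K1C replicate 1. It lay between -0.54 and 0.05 on each of the other 16 arrays. Over all tested genes the same median lay between -0.07 and 0.12 on every array.

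**Figure D1:**
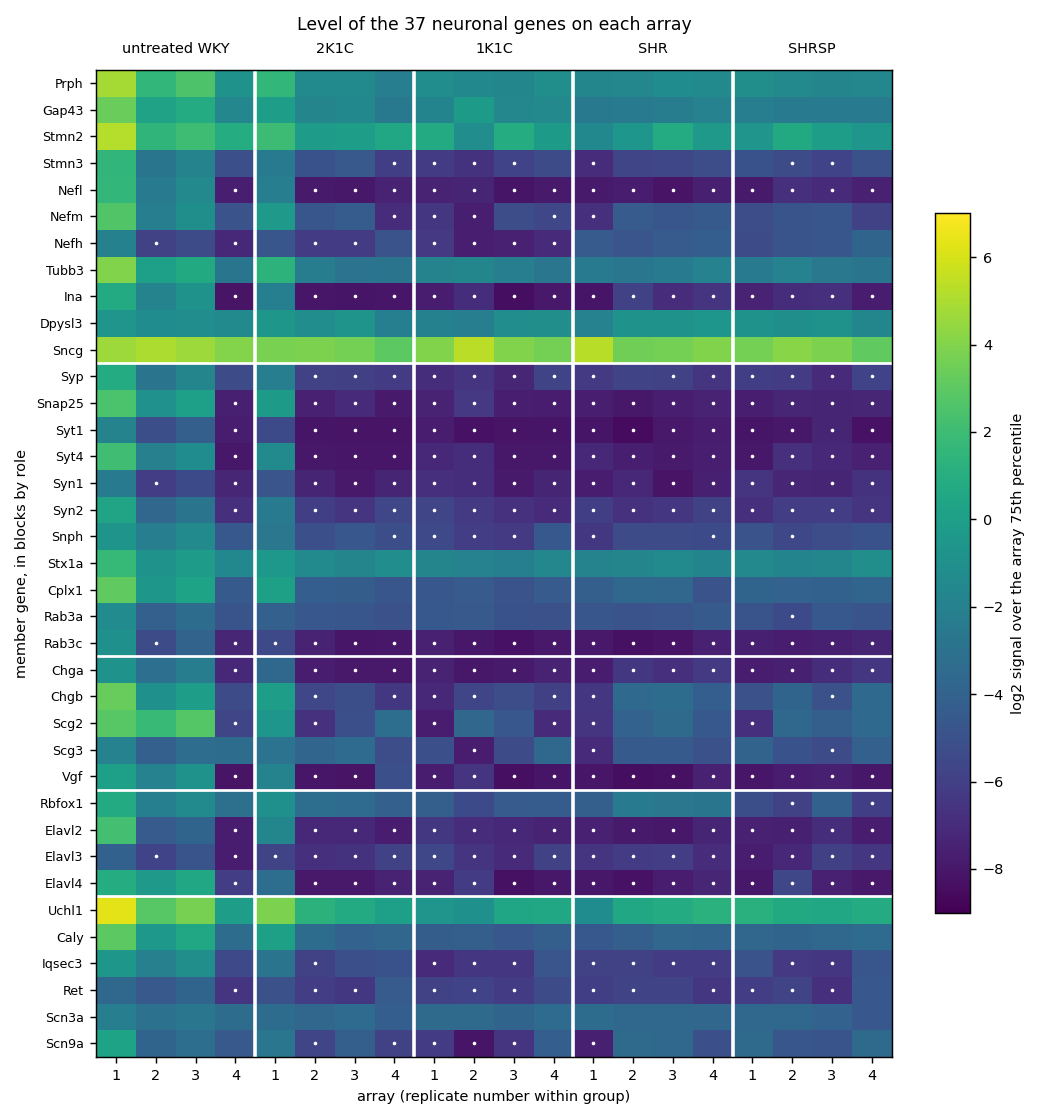
Level of each of the 37 neuronal genes (rows, in blocks by role) on each of the 20 arrays (columns, by group and replicate) as log2 signal over the array's 75th percentile. White dots mark genes not well above background. The columns of untreated WKY replicates 1, 2 and 3 and 2K1C replicate 1 are brighter than the others for 30 of 37 genes.

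Detection followed the same split. All 37 genes were well above background on untreated WKY replicates 1 and 3, 33 on replicate 2 and 35 on 2K1C replicate 1, against 14 to 22 on each of the other 16 arrays. Of the 37, 12 were well above background on none of those 16 arrays, 11 on all of them and 14 on some. The spread within groups differed in step. The median SD of the 37 genes was 2.56 in untreated WKY, 1.54 in 2K1C, 0.60 in 1K1C, 0.40 in SHR and 0.44 in SHRSP, while that of all tested genes was 0.29, 0.31, 0.28, 0.29 and 0.20. For the 22 tested neuronal genes alone the median SD was 2.17, 1.32, 0.63, 0.54 and 0.41 in the same order of groups. In untreated WKY, 99.2% of tested genes had an SD below that 2.17.

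Intermediate filaments and other parts of the neuron cytoskeleton came first by role. Peripherin (Prph), the intermediate filament of peripheral neurons, was at 4.85, 1.57, 2.52 and -0.80 on untreated WKY replicates 1 to 4 and at 1.59, -1.41, -1.34 and -2.16 on 2K1C replicates 1 to 4. It was at -1.15, -1.52, -1.68 and -1.12 in 1K1C, at -1.63, -1.60, -1.23 and -1.40 in SHR and at -1.12, -1.47, -1.72 and -1.60 in SHRSP. Only untreated WKY replicates 1 to 3 and 2K1C replicate 1 were above 0, and the values of the other 16 arrays spanned 1.35. The group means were 2.04 ± 2.34 in untreated WKY, -0.83 ± 1.65 in 2K1C, -1.36 ± 0.28 in 1K1C, -1.47 ± 0.19 in SHR and -1.48 ± 0.26 in SHRSP (SD, n = 4 each). The growth cone protein gene Gap43 had 3.33, 0.22, 0.86 and -1.57 in untreated WKY and -0.09, -1.70, -1.52 and -2.51 in 2K1C. Its values were -1.78, -0.31, -1.58 and -1.47 in 1K1C, -2.55, -2.39, -2.20 and -1.88 in SHR and -2.17, -2.31, -2.40 and -2.36 in SHRSP. SHRSP arrays lay within 0.23 of each other, and 1K1C replicate 2 stood 1.16 above the next array of its group.

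Alpha-internexin (Ina) and the neurofilament light chain (Nefl) were well above background on those 4 arrays and on no other. Ina was at 0.75, -1.83, -0.82 and -8.14 on untreated WKY replicates 1 to 4 and at -2.08, -8.04, -8.12 and -8.05 on 2K1C replicates 1 to 4, and at -8.40 to -5.90 on the 12 arrays of 1K1C, SHR and SHRSP. Nefl was at 1.61, -2.40, -1.48 and -7.65 in untreated WKY and at -2.16, -7.85, -7.95 and -7.45 in 2K1C, and at -8.14 to -6.79 on those 12 arrays. For both genes untreated WKY replicate 4 was not well above background, like the remaining arrays. The neurofilament medium chain (Nefm) was at 2.64, -2.15, -1.04 and -4.90 in untreated WKY and at -0.41, -4.69, -4.33 and -6.94 in 2K1C. It had -6.48, -7.65, -5.21 and -5.60 in 1K1C, -6.75, -4.41, -4.69 and -4.45 in SHR and -5.24, -4.84, -4.72 and -5.83 in SHRSP, and was well above background on 3 of 4 SHR and 4 of 4 SHRSP arrays.

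The neurofilament heavy chain (Nefh) departed from that order. It was at -1.95, -5.86, -5.32 and -7.24 in untreated WKY, -4.71, -6.13, -6.23 and -4.93 in 2K1C, -6.35, -7.65, -7.56 and -7.05 in 1K1C, -4.43, -4.79, -4.42 and -4.25 in SHR and -5.32, -4.84, -4.75 and -3.87 in SHRSP. All 8 arrays of SHR and SHRSP were well above background and above untreated WKY replicates 2 and 4, whereas 0 of 4 1K1C arrays were. Untreated WKY replicate 1 was still its highest array. Nefh was 1 of the 2 tested genes whose mean was higher in SHR and in SHRSP than in untreated WKY, the other being Dpysl3, by 0.62 ± 0.75 and 0.40 ± 0.75 (SE) for Nefh, with groups that overlapped and no call.

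The stathmins, which bind tubulin, followed the shared order with unlike floors. Stmn2 was at 5.22, 1.47, 2.06 and 0.91 in untreated WKY and 2.00, -0.15, -0.01 and 0.51 in 2K1C, and at -1.55 to 0.91 on the 12 arrays of the other groups, where it stayed well above background. Stmn3 was at 1.51, -2.81, -1.82 and -5.11 in untreated WKY and -2.38, -4.98, -4.56 and -6.06 in 2K1C, and at -6.96 to -4.99 on those 12 arrays. The neuronal tubulin Tubb3 was at 3.95, 0.01, 0.74 and -2.76 in untreated WKY, 1.33, -2.21, -2.89 and -2.86 in 2K1C and -2.82 to -1.68 on the 12 arrays. Each of the 3 genes thus had the same 4 arrays on top. Dpysl3, of the collapsin response mediator family, and the gamma-synuclein gene Sncg did not. Dpysl3 spanned 1.59 over the 20 arrays with its highest value, -0.53, on 2K1C replicate 1. Sncg spanned 2.40 with its highest values, 5.34 and 5.28, on 1K1C replicate 2 and SHR replicate 1, and 4.64, 5.03, 4.67 and 4.05 in untreated WKY. Sncg is also known in fat cells, and on 1K1C replicate 2 and SHR replicate 1 the median deviation of the white adipocyte list was 1.30 and 1.36, the highest of the 20 arrays. The part of fat in that value was not tested.

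**Figure D2:**
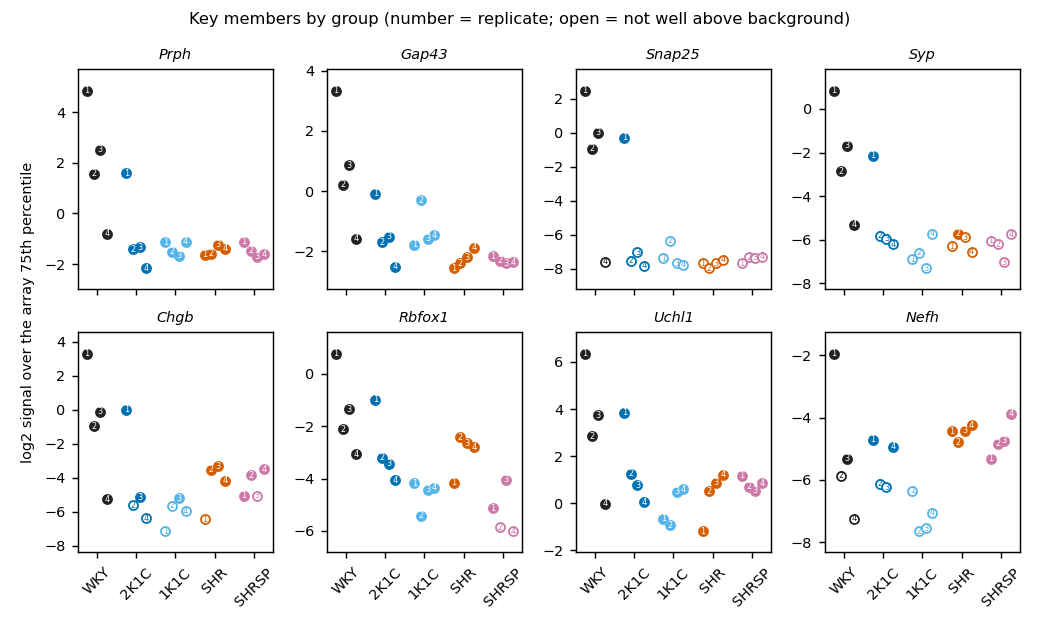
Level (vertical axis, log2 signal over the array's 75th percentile) of 8 genes on each array, by group (horizontal axis). Each point is 1 array with its replicate number, and open points are not well above background. Untreated WKY replicates 1, 2 and 3 and 2K1C replicate 1 stand above the rest for every gene shown but Nefh, where SHR and SHRSP arrays lie between -5.32 and -3.87.

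Genes of the synaptic vesicle and of membrane fusion held the widest ranges within untreated WKY. Snap25, a membrane fusion protein of nerve endings, was at 2.49, -0.94, 0.00 and -7.57 on untreated WKY replicates 1 to 4 and at -0.28, -7.52, -7.03 and -7.82 on 2K1C replicates 1 to 4. It was at -7.39, -6.34, -7.66 and -7.76 in 1K1C, -7.66, -7.95, -7.66 and -7.47 in SHR and -7.67, -7.31, -7.35 and -7.29 in SHRSP, none of these well above background. The range within untreated WKY was 10.06. The second Snap25 probe printed above, which starts at base 770 of the transcript where the first starts at base 1226, gave 0.81, -2.41, -1.49 and -7.88 in untreated WKY, -2.38 on 2K1C replicate 1 and at most -5.94 elsewhere. Both probes therefore picked the same 4 arrays, each well above background there and nowhere else.

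Syt4, a synaptotagmin, had 2.09, -2.03, -1.24 and -7.97 in untreated WKY and -1.37, -7.94, -8.03 and -8.01 in 2K1C, against -7.97 to -6.86 in 1K1C, SHR and SHRSP. Its range within untreated WKY was 10.06 as well. The calcium sensor Syt1 was at -1.84, -5.16, -4.14 and -7.77 in untreated WKY, at -5.42 on 2K1C replicate 1 and at -8.50 to -7.35 on the other 16 arrays. Synapsins tether vesicles to the cytoskeleton. Syn1 was at -2.45, -6.09, -5.42 and -7.30 in untreated WKY and -4.75 on 2K1C replicate 1, against -8.15 to -6.56 elsewhere. Syn2 was at 0.36, -3.72, -2.87 and -6.81 and -2.38 on those arrays, against -7.12 to -5.59 elsewhere. Neither synapsin was well above background on any of the other 16 arrays, and on untreated WKY replicate 2 only Syn2 was.

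Synaptophysin (Syp), a membrane protein of the vesicle, was at 0.84, -2.85, -1.69 and -5.32 in untreated WKY, -2.15, -5.83, -5.95 and -6.21 in 2K1C, -6.89, -6.60, -7.30 and -5.73 in 1K1C, -6.30, -5.72, -5.88 and -6.54 in SHR and -6.03, -6.20, -7.04 and -5.75 in SHRSP. The highest of the SHRSP values was 0.43 below the lowest of untreated WKY. Syntaphilin (Snph), which anchors mitochondria in axons, was at -0.74, -2.14, -1.36 and -4.61 in untreated WKY and -2.67, -5.10, -4.65 and -5.17 in 2K1C. It had -5.46, -6.08, -6.26 and -4.61 in 1K1C, -6.41, -5.37, -5.35 and -5.40 in SHR and -4.90, -5.52, -5.19 and -4.99 in SHRSP, and SHR replicate 1 lay 1.00 below the next SHR array. No array had the other Snph probe well above background.

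The small GTPases of vesicle docking differed in floor. Rab3a was at -1.26, -4.10, -3.35 and -4.82 in untreated WKY and -4.10, -4.68, -4.71 and -5.02 in 2K1C, against -5.41 to -4.48 in the other groups, well above background on 19 of 20 arrays. Rab3c was at -0.94, -5.33, -3.93 and -7.25 and -5.50, -7.38, -8.01 and -7.98 in the same groups, against -8.30 to -7.32, and was well above background on untreated WKY replicates 1 and 3 only. Cplx1, which clamps the fusion complex, was at 3.10, -0.53, 0.31 and -4.48 in untreated WKY and 0.12, -4.25, -4.26 and -4.73 in 2K1C, and at -4.90 to -3.68 in 1K1C, SHR and SHRSP. Its second probe put the same 4 arrays on top. Stx1a, a syntaxin, was at 1.75, -0.86, -0.16 and -1.51 in untreated WKY and -0.46 on 2K1C replicate 1, against -2.09 to -1.10.

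The granins and Vgf are cargo of dense-core vesicles, which carry peptides and amines. Chgb was at 3.29, -0.98, -0.12 and -5.27 in untreated WKY and -0.01, -5.62, -5.16 and -6.38 in 2K1C. It was at -7.15, -5.66, -5.21 and -5.98 in 1K1C, -6.45, -3.55, -3.33 and -4.19 in SHR and -5.06, -3.86, -5.05 and -3.50 in SHRSP. Untreated WKY replicates 1 to 3 and 2K1C replicate 1 stood at least 2.35 above every other array. Scg2 was at 2.86, 1.81, 2.76 and -5.68 in untreated WKY, -0.60, -6.70, -5.10 and -3.21 in 2K1C, -7.69, -3.70, -4.66 and -7.10 in 1K1C, -6.59, -3.99, -3.46 and -4.58 in SHR and -6.76, -3.64, -4.14 and -3.51 in SHRSP. Untreated WKY replicates 1 and 3 differed by only 0.10 for Scg2, while they differed by 3.41 for Chgb. Chga was at -0.76, -3.13, -2.25 and -7.22 in untreated WKY and -3.64 on 2K1C replicate 1, against -7.94 to -6.27, never well above background on the other 16. Vgf was at 0.01, -1.91, -0.77 and -8.15 in untreated WKY and -1.86, -8.06, -8.15 and -5.09 in 2K1C, so that 2K1C replicate 4 was also well above background. Scg3 had the narrowest range of the granins within untreated WKY, 2.18, with -1.93, -4.11, -3.26 and -3.35 there, -2.93, -3.77, -3.40 and -5.24 in 2K1C, -5.10, -7.74, -5.33 and -3.67 in 1K1C, -7.10, -4.47, -4.49 and -5.02 in SHR and -3.93, -4.94, -5.34 and -4.12 in SHRSP.

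Promoters were looked at because these genes moved together over arrays. Promoter sequence was held in the RefSeq table (GRCr8, 250 bases before to 50 after the gene start) for 29 of the 37 genes. The cAMP response element TGACGTCA, read on both strands, was in 3 of the 29 (Scg2, Syn1 and Vgf), against 1.829% of all 33469 promoters of that length. The letters below are the stretch around it in each, with the element in capitals.
Scg2, chr9:88256922-88257019, minus strand: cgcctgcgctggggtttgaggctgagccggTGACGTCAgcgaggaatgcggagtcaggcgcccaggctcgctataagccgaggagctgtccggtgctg
Vgf, chr12:25277043-25277140, minus strand: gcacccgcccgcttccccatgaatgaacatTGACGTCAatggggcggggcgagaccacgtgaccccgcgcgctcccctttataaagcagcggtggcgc
Syn1, chrX:3725525-3725622, plus strand: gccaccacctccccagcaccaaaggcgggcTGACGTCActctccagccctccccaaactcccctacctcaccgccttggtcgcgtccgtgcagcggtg
The 17-letter core of the RE1 element, the site of a repressor of neuronal genes, was in 0 of the 29 and in 0.006% of all promoters. The left part of RE1 was in Elavl4 and Scg2 (0.356% of all) and the right part in Vgf (0.131% of all). The box TATAAA was in Elavl2, Prph, Uchl1 and Vgf (14.222% of all). A match is a description of letters and says nothing on binding.

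Among RNA-binding proteins, the Elavl genes encode the Hu proteins of neurons, and they did not share 1 profile. Elavl2 was at 2.22, -4.43, -3.84 and -7.79 in untreated WKY and -1.64, -7.24, -7.20 and -7.75 in 2K1C, against -7.95 to -6.43 on the 12 arrays of 1K1C, SHR and SHRSP. Elavl4 was at 0.90, -0.32, 0.62 and -6.11 in untreated WKY and -3.22, -7.92, -7.88 and -7.43 in 2K1C, against -8.27 to -5.61 on those arrays. Untreated WKY replicate 1 exceeded replicate 3 by 6.07 for Elavl2, the widest gap of the 37 genes, and by 0.29 for Elavl4. On 2K1C replicate 1 Elavl2 was 2.20 above its level on untreated WKY replicate 3, and Elavl4 was 3.84 below its own. Elavl3 was dim everywhere, with -4.01, -5.79, -4.83 and -7.81 in untreated WKY and well above background on replicates 1 and 3 alone.

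Rbfox1, a splicing factor of neurons and muscle, was at 0.77, -2.12, -1.35 and -3.06 in untreated WKY, -0.99, -3.21, -3.43 and -4.07 in 2K1C, -4.18, -5.42, -4.42 and -4.36 in 1K1C, -4.16, -2.42, -2.65 and -2.80 in SHR and -5.13, -5.87, -4.04 and -6.01 in SHRSP. Here 3 of the 4 SHR arrays lay above every 1K1C and SHRSP array. The levels in SHR and SHRSP overlapped only through SHR replicate 1 and SHRSP replicate 3.

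The remaining genes are a hydrolase, a receptor, channels and membrane proteins. Uchl1, a ubiquitin hydrolase abundant in neurons, was at 6.35, 2.84, 3.74 and -0.02 in untreated WKY and 3.85, 1.25, 0.76 and 0.05 in 2K1C. It was at -0.67, -0.95, 0.48 and 0.59 in 1K1C, -1.19, 0.51, 0.87 and 1.21 in SHR and 1.17, 0.71, 0.53 and 0.85 in SHRSP. Its level stood well above background on all 20 arrays, and untreated WKY replicate 4, at -0.02, lay inside the range of 1K1C, SHR and SHRSP. Caly, a vesicle protein, was at 2.96, -0.44, 0.55 and -3.34 in untreated WKY and 0.09, -3.34, -3.97 and -3.70 in 2K1C. It had -4.29, -4.16, -4.64 and -4.15 in 1K1C, -4.58, -4.15, -3.72 and -3.75 in SHR and -3.69, -3.82, -3.65 and -3.39 in SHRSP. Iqsec3, an exchange factor of Arf GTPases, was at -0.54, -2.02, -1.12 and -5.46 in untreated WKY and -2.86, -5.91, -5.10 and -4.97 in 2K1C, with -7.08, -6.44, -6.48 and -4.76 in 1K1C, -5.90, -5.83, -6.13 and -6.24 in SHR and -4.94, -6.32, -6.46 and -4.71 in SHRSP. For both genes untreated WKY replicate 4 stood apart from the other 3 controls, by 2.89 for Caly and 3.45 for Iqsec3.

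The sodium channel genes behaved unlike each other. Scn3a moved little, with -2.14, -2.95, -2.75 and -3.36 in untreated WKY, -3.34, -3.74, -3.43 and -4.24 in 2K1C, -3.49, -3.47, -3.82 and -3.42 in 1K1C, -3.36, -3.61, -3.67 and -3.74 in SHR and -3.65, -3.67, -3.95 and -4.68 in SHRSP. Scn9a was at 0.25, -3.84, -3.23 and -4.53 in untreated WKY, -2.70, -5.68, -4.13 and -5.89 in 2K1C, -6.18, -8.06, -6.54 and -4.20 in 1K1C, -7.59, -3.49, -3.61 and -5.07 in SHR and -3.48, -4.73, -4.86 and -3.49 in SHRSP, so that some SHR and SHRSP arrays lay above untreated WKY replicates 2 and 4. Ret, the receptor of the GDNF family of growth factors, was at -3.65, -4.56, -3.82 and -6.59 in untreated WKY and -5.00, -6.07, -6.40 and -4.42 in 2K1C. The 7 genes whose 4 highest arrays were not exactly untreated WKY replicates 1 to 3 and 2K1C replicate 1 were Dpysl3, Sncg, Nefh, Scg3, Scn9a, Elavl3 and Ret. For Ret this holds for the probe described. Another Ret probe had exactly those 4 arrays on top and was well above background on them and on no other. It was at -2.85, -4.16, -3.08 and -7.26 in untreated WKY and -5.23 on 2K1C replicate 1. The remaining Ret probe was well above background on no array.

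The 4 arrays differed from each other gene by gene. Untreated WKY replicate 3 exceeded replicate 2 for 36 of 37 genes by a nearly even step, with a median of 0.85 and an SD over genes of 0.31. Replicate 1 exceeded replicate 3 for 36 genes by a median of 2.41 with an SD of 1.33, and the gap ran from -0.04 for Sncg to 6.07 for Elavl2. The gap was at most 0.81 for 10 genes: Sncg, Scg2, Ret, Elavl4, Dpysl3, Iqsec3, Scn3a, Snph, Vgf and Elavl3. Replicate 1 exceeded 2K1C replicate 1 by a median of 2.84 with an SD of 0.99. These gaps compare single arrays, without replicates.

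**Figure D3:**
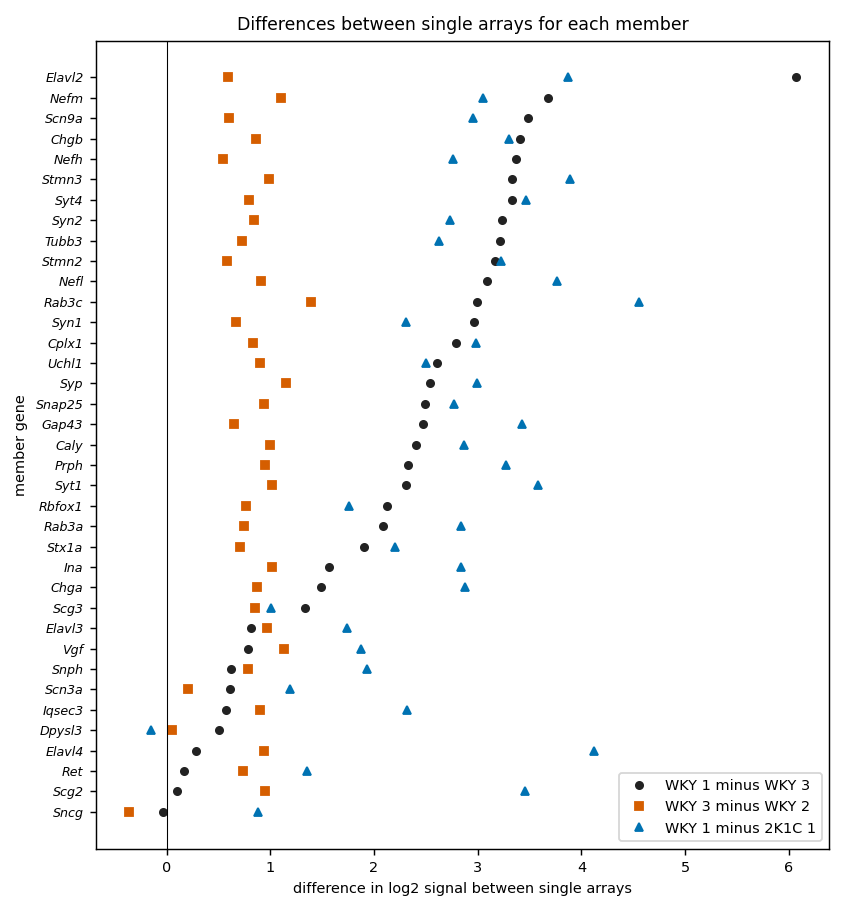
Difference in log2 signal (horizontal axis) between pairs of single arrays for each of the 37 genes (vertical axis, ordered by untreated WKY replicate 1 minus replicate 3). The squares, replicate 3 minus replicate 2, lie in a narrow column near 0.85, and the circles run from -0.04 for Sncg to 6.07 for Elavl2.

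Against untreated WKY, the median of the neuronal genes was lower in each of the other 4 groups. Fitted with limma over all 16424 genes and Benjamini-Hochberg adjusted at 0.05, 5 of the 22 tested genes were lower in SHR (Prph, Gap43, Caly, Iqsec3 and Snph), where 1.84% of all tested genes were called and 1.01% were called lower. In SHRSP 7 of 22 were lower (Prph, Gap43, Rbfox1, Syp, Iqsec3, Snph and Scn3a), where 2.39% of all were called and 1.24% lower. None was higher. The median difference over the 22 genes was -2.86 in SHR and -2.93 in SHRSP, and over all tested genes 0.02 and 0.00. The values of SHR lay wholly below those of untreated WKY for 10 of 22 genes, and of SHRSP for 8 of 22, against 2.8% and 4.96% of all tested genes. Nothing is read from these counts, since the genes were chosen with them known, and both comparisons share the untreated WKY arrays. SHR and SHRSP lay on another slide than untreated WKY, and slide and group cannot be told apart there. All 5 groups shared 1 estimate of the spread in this fit. The median SD of the 22 genes was 2.17 in untreated WKY, 0.54 in SHR and 0.41 in SHRSP. The SEs and p-values against untreated WKY therefore do not carry the full spread of that group.

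Of the 22 genes, 5 (Chgb, Iqsec3, Snph, Stmn3 and Syp) passed the filter on dim probes only through untreated WKY, the group where they are high. Such a filter favours genes that are higher in untreated WKY than elsewhere. The calls of Iqsec3 and Snph in SHR and of Iqsec3, Snph and Syp in SHRSP therefore support nothing and only describe. Chgb and Stmn3, which passed in the same way, were called in neither strain. Prph and Gap43, called in both strains, passed the filter in all 5 groups. Prph was at -3.50 ± 0.85 in SHR and -3.51 ± 0.85 in SHRSP (SE, limma adjusted p = 0.0438 and 0.0349). Gap43 was at -2.97 ± 0.70 and -3.02 ± 0.70 (adjusted p = 0.039 and 0.0278). Among the other called genes, Snph was at -3.42 ± 0.67 in SHR (SE, adjusted p = 0.0122) and -2.94 ± 0.67 in SHRSP (adjusted p = 0.0255). Caly was at -3.99 ± 0.96 in SHR (adjusted p = 0.0413). Iqsec3, which no SHR array had well above background, was at least 11.9-fold lower there (adjusted p = 0.0333) and at -3.32 ± 0.85 in SHRSP (adjusted p = 0.0473). Syp, not well above background on any SHRSP array, was at least 11.3-fold lower there (adjusted p = 0.0369). "At least" sets the mean of untreated WKY against the higher of the probe's own signal and the lowest signal well above background. It allows for dim SHR and SHRSP signals only and is no lower bound on a strain difference. The untreated WKY mean rests on its high arrays, as replicate 4 was at -5.46 for Iqsec3 and -5.32 for Syp. Without the 4 arrays with high neuronal signal, which leaves 1 control, Iqsec3 was at -0.56 in SHR and Syp at -0.94 in SHRSP. Scn3a was at -1.19 ± 0.26 (adjusted p = 0.019) and Rbfox1 at -3.82 ± 0.73 (adjusted p = 0.00772) in SHRSP. In SHRSP the Rbfox1 arrays did not overlap with untreated WKY.

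The counts of members called moved with single arrays. The share of all tested genes called in each of the fits below is not given here, so nothing is read from these counts. Without untreated WKY replicate 4, the 1 control at the level of the other groups, 16 of 22 genes were lower in SHR and 17 of 22 in SHRSP. Without untreated WKY replicate 3 there were 0 and 1, without replicate 1 there were 1 and 2, and without replicate 2 there were 1 and 2. Leaving out 1 SHR array gave 2, 1, 1 and 1 for replicates 1 to 4, and leaving out 1 SHRSP array gave 2, 2, 1 and 1. Rbfox1 in SHRSP was called in all 8 of these fits and Snph in SHR in 7 of 8, with adjusted p up to 0.0329 and 0.0544. The members were chosen by their differences from untreated WKY, so neither repeated call supports anything. Rbfox1 was well above background on 2 of 4 SHRSP arrays, and Snph passed the filter only through untreated WKY. In a fit without untreated WKY replicates 1, 2 and 3 and 2K1C replicate 1, chosen after seeing the data, 0 of 22 genes were called in any of the 5 comparisons that use them. That fit has 1 untreated WKY array, which is assumed to vary like the arrays of the other groups. The median differences were then -0.21 in SHR and -0.21 in SHRSP. In SHRSP Rbfox1 was at -2.20 and Nefh at 2.55 (adjusted p = 0.73 and 0.13).

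**Figure D4:**
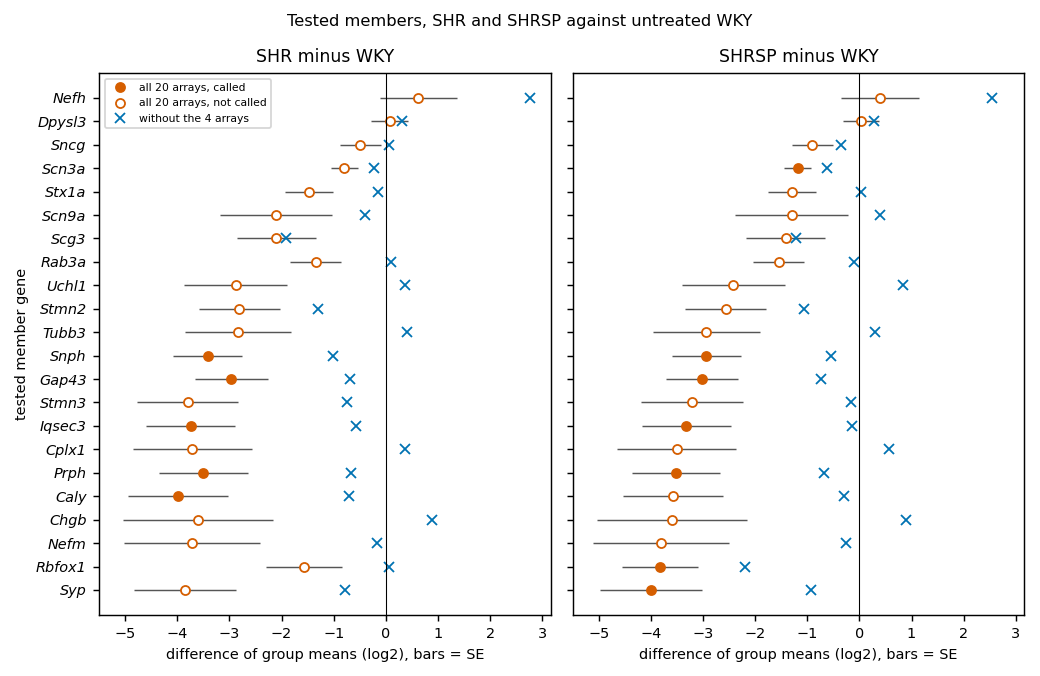
Difference from untreated WKY (horizontal axis, log2, bars show the SE) of the 22 tested genes in SHR (left) and SHRSP (right). Filled circles were called and open circles were not in the fit of all 20 arrays, and crosses give the difference without untreated WKY replicates 1, 2 and 3 and 2K1C replicate 1. In both panels 20 of 22 crosses lie nearer 0 than their circles, with a median of -0.21, the exceptions being Nefh and Dpysl3.

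No tested neuronal gene was called in the operated WKY groups. In 2K1C against untreated WKY, limma called 0 of 22 genes (0.0122% of all tested genes), 14 had an unadjusted p under 0.05 (22% of all), and all 22 had a lower mean, with a median of -1.98. Their values lay wholly below untreated WKY for 1 of 22 genes, Sncg (4.07% of all). The 2K1C arrays lay on another slide than untreated WKY, and slide and group cannot be told apart there. In 1K1C against untreated WKY, on the same slide, 0 of 22 genes were called (0% of all), 20 had an unadjusted p under 0.05 (9.09% of all), and all 22 had a lower mean, with a median of -3.26. The values lay wholly below untreated WKY for 10 of 22 (1.53% of all). The widest differences were those of Chgb, -5.23 ± 1.44 in 1K1C and -3.52 ± 1.44 in 2K1C (SE, adjusted p = 0.213 and 0.176). Without untreated WKY replicates 1 to 3 and 2K1C replicate 1, which leaves 1 control, the medians were -0.35 in 2K1C and -0.64 in 1K1C. Chgb was then at -0.73 in 1K1C and -0.46 in 2K1C. Without untreated WKY replicate 4, 12 and 14 of the 22 genes were called lower in 2K1C and 1K1C. The share of all tested genes called in that fit is not given here, so nothing is read from the 2 counts. The fit of 1K1C and untreated WKY alone, which stays within the slide, called 0.

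The 2 comparisons that leave out untreated WKY were those of the strains and of the operations. Between SHRSP and SHR, which shared a slide, 0 of 22 genes were called (0.359% of all tested genes) and 1 had an unadjusted p under 0.05 (3.56% of all). The median difference was 0.00 with 11 genes higher and 11 lower in SHRSP, and 0 of 22 had values wholly below SHR (1.86% of all). The 1 gene was Rbfox1, at -2.25 ± 0.73 (SE, adjusted p = 0.618), below the values of SHR on 3 of 4 SHRSP arrays. All 5 groups shared 1 estimate of the spread in this fit, and untreated WKY spread widely. The SE of Prph was thus 0.85 here, where its SD was 0.19 in SHR and 0.26 in SHRSP. A difference between the strains was therefore hard to call in this fit. The fit of SHR and SHRSP alone also called 0. Between 1K1C and 2K1C, on different slides, 0 of 22 were called (0% of all) and 3 had an unadjusted p under 0.05 (21.5% of all), with 19 lower in 1K1C and a median of -1.40. The values of 1K1C lay wholly below those of 2K1C for 3 of 22 (2.37% of all). Slide and group cannot be told apart here either. The 3 at an unadjusted p under 0.05 were Rbfox1 at -1.67 ± 0.73, Nefh at -1.65 ± 0.75 and Scg3 at -1.62 ± 0.76 (SE, adjusted p = 0.197, 0.209 and 0.224). Without 2K1C replicate 1 the median was -0.51 and 0 of 22 had an unadjusted p under 0.05, as was the case without 1K1C replicate 2, where the median was -1.04.

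Other neuronal genes, listed by function with earlier results of these data known, shared the pattern in part. Of 66 further genes of the cytoskeleton, of vesicle release, of RNA binding, of ion channels and of peptide processing that have a probe, 44 were highest on untreated WKY replicate 1 (9.84% of all gene names), and 16 had exactly the same 4 arrays on top (1.1% of all), against 30 of the 37 members. Of the 40 that were tested, 2 were called in each strain, where 1.84% of all tested genes were called in SHR and 2.39% in SHRSP. Dcx and Celf5 were lower in SHR, at -1.85 ± 0.28 and -1.65 ± 0.39 (SE, limma adjusted p = 0.0011 and 0.0392), and Dcx and Resp18 were lower in SHRSP, at -1.70 ± 0.28 and -3.09 ± 0.80 (adjusted p = 0.00211 and 0.049). Dcx binds microtubules in young neurons, Celf5 binds RNA and Resp18 is a protein of endocrine granules. No gene of these 5 lists was called in the other 4 comparisons, where 0% to 0.359% of all tested genes were called. In SHR the median difference was -0.73 for other cytoskeletal genes, -0.65 for other release genes, -0.93 for other RNA-binding genes, -0.95 for ion channels and -0.90 for peptide processing, members left out, each nearer 0 than the -2.86 of the 22 tested members. The genes with the widest ranges were Tubb2b, Map2 and Stmn4, then Syngr3, Rims1 and Napb, then Celf6, Celf3 and Celf4, then Kcnq3, Scn11a and Cacna1b, then Cadps and Scg5. All but Rims1 and Scn11a were highest on untreated WKY replicate 1.

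Genes that mark kinds of neurons divided the 4 arrays. Tyrosine hydroxylase (Th), which makes the precursor of noradrenaline, was at 5.18, -1.24, -1.44 and -1.39 on untreated WKY replicates 1 to 4 and at 2.55, -1.13, -1.40 and -1.21 on 2K1C replicates 1 to 4, and at -1.62 to -0.79 on the 12 arrays of 1K1C, SHR and SHRSP. The noradrenaline transporter Slc6a2 was at 5.79, -3.76, -3.65 and -3.29 in untreated WKY, 2.99, -2.76, -2.75 and -3.07 in 2K1C and -3.91 to -1.997 on the 12 arrays of 1K1C, SHR and SHRSP. Untreated WKY replicate 1 and 2K1C replicate 1 were thus high for both, and untreated WKY replicates 2 and 3 were not. Dbh, the enzyme that makes noradrenaline, was at 5.57, -4.85, -3.54 and -7.52 in untreated WKY and 2.59 on 2K1C replicate 1, and Slc18a2, the vesicular monoamine transporter, was at 3.39, -2.26, -2.31 and -2.81 and 0.22. Of the 17 noradrenergic genes, 14 were highest on untreated WKY replicate 1.

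The peptide genes Vip, Gal, Tac1 and Calcb gave the reverse, while the peptide gene Sst, given below, did not. Vip was at -5.60, 1.78, 2.72 and -6.12 in untreated WKY, -5.96, -7.26, -6.43 and -2.44 in 2K1C and -7.62 to -2.71 on the 12 arrays of 1K1C, SHR and SHRSP. Gal was at -3.73, 5.50, 5.95 and -3.87 in untreated WKY, -3.41, -2.98, -3.41 and -1.85 in 2K1C and -5.77 to -2.22 on those 12. Tac1 was at -7.19, 1.92, 2.75 and -7.17 in untreated WKY and -6.58, -7.73, -6.62 and -1.76 in 2K1C, and Calcb at -5.16, 0.18, 1.02 and -4.97 and -4.82, -4.66, -4.92 and -4.50. On untreated WKY replicate 1 and 2K1C replicate 1 all 4 peptide genes lay inside the range of the other arrays besides untreated WKY replicates 2 and 3, and these 2 lay above it. Outside them the highest value was that of 2K1C replicate 4 for Vip, Gal and Tac1. Calb2, which marks many enteric neurons and mesothelium, was at -0.16, 0.85, 2.05 and -6.89 in untreated WKY and -3.88 on 2K1C replicate 1. The somatostatin gene Sst was well above background on the 4 arrays and on no other, at 0.89, 0.50, 1.45 and -8.00 in untreated WKY and -2.18 on 2K1C replicate 1. Which neurons the members came from on each array was not tested.

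**Figure D5:**
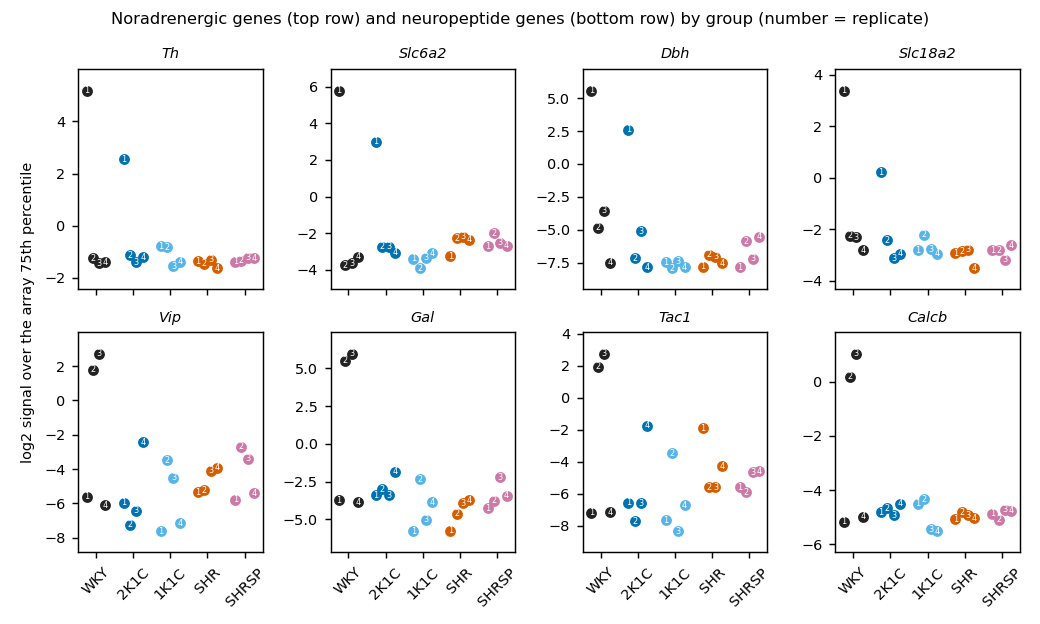
Level (vertical axis, log2 signal over the array's 75th percentile) of 4 noradrenergic genes (top) and 4 neuropeptide genes (bottom) on each array, by group (horizontal axis), with the replicate number in each point. The noradrenergic genes are high on untreated WKY replicate 1 and 2K1C replicate 1, and the peptide genes on untreated WKY replicates 2 and 3.

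The summed signal, in units of the array's 75th percentile, gave the same split for the noradrenergic and the enteric list. A sum follows its brightest genes, such as Gal on the enteric list. That of the 17 noradrenergic genes was 371 on untreated WKY replicate 1 and 41.1 on 2K1C replicate 1, and 5.43, 7.47 and 4.21 on untreated WKY replicates 2, 3 and 4. Over the 4 arrays of 2K1C the lowest sum was 3.38 and the median 4.90, and it ran from 3.86 to 5.33 in 1K1C, 4.61 to 6.82 in SHR and 4.26 to 8.11 in SHRSP. That of the 13 cholinergic and enteric genes was 51.6 and 74.6 on untreated WKY replicates 2 and 3, against 3.21, 1.20 and 1.46 on untreated WKY replicates 1 and 4 and 2K1C replicate 1, and at most 1.18 in 1K1C, SHR and SHRSP. Their median deviation was 0.71, 1.60, 3.13 and -0.18 on untreated WKY replicates 1 to 4. Of the 13, 6 were highest on untreated WKY replicate 3 and 4 on replicate 1. Tac1 and Calcb are among the 11 sensory genes that are not on the noradrenergic list. These 11 summed to 0.71, 5.28, 9.16 and 0.33 on untreated WKY replicates 1 to 4. On 2K1C replicate 1 they summed to 0.45, and to at most 0.73 on the other 16 arrays. All 12 sensory genes summed to 13.7, 5.29, 9.18 and 0.35 on untreated WKY replicates 1 to 4 and to 2.56 on 2K1C replicate 1. The median deviation of the 12 was 0.05, 0.20, 0.03 and -0.13 on those untreated WKY arrays. The sensory list as a whole was thus not high on untreated WKY replicates 2 and 3. The pancreatic endocrine list did not set untreated WKY replicates 2 and 3 apart from replicate 1. Its 13 genes, Sst among them, summed to 2.83, 1.65, 2.96 and 0.40 on untreated WKY replicates 1 to 4 and to 0.76 on 2K1C replicate 1, against at most 0.84 in 1K1C, SHR and SHRSP. The 7 chromaffin genes share Th, Dbh and Slc18a1 with the noradrenergic list, and Pnmt, which only adrenaline-making cells need, ran from -3.71 to -2.71 over the 20 arrays.

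Markers of cells that accompany nerves were highest on 2K1C replicate 1, and on untreated WKY they were lower on replicates 2 and 3 than on replicates 1 and 4. For the 17 Schwann cell and satellite glia genes, the median deviation from each gene's median level was 0.56, -0.97, -1.02 and 0.50 on untreated WKY replicates 1 to 4 and 0.86 on 2K1C replicate 1, and it ran from -1.42 to 0.57 on the remaining 15 arrays. Of the 17, 9 were highest on 2K1C replicate 1 and 4 on untreated WKY replicate 1, where 6.29% and 9.84% of all gene names were highest, and 0 had the same 4 arrays on top as the members. Their part in the results was not tested. The summed signal of the list was 97.1, 43.4, 32.7 and 103 on untreated WKY replicates 1 to 4 and 129 on 2K1C replicate 1. It ran from 40.4 to 129 over all of 2K1C and from 47.8 to 98.8 in 1K1C, 46.4 to 85.8 in SHR and 50.4 to 97.2 in SHRSP. In this list 0 of 15 tested genes were called in any of the 6 comparisons. Between 0% and 2.39% of all tested genes were called per comparison, so nothing is read from that count. The satellite glia gene Fabp7 was well above background on untreated WKY replicate 1 alone, at -4.22.

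Markers of other tissues also moved on these arrays, and their part in the results was not tested. The brown fat gene Ucp1 was at 6.43, -4.39, -7.68 and -7.23 in untreated WKY, and reached 3.09 on 1K1C replicate 3. The summed signal of the 8 mesothelial genes was 1.31, 12.7, 8.94 and 0.50 on untreated WKY replicates 1 to 4, and it was 6.93 on 1K1C replicate 2 and 15.04 on SHR replicate 1, where the neuronal genes were low. That of the 10 smooth muscle genes was 229, 502, 606 and 267 on untreated WKY replicates 1 to 4, within the 47.0 to 627 of the other groups. The 4 genes of the interstitial cells of Cajal, the pacemakers of the gut wall, summed to 1.61, 1.58, 2.35 and 1.72 there and to 0.93 to 2.38 elsewhere. Of these 4 genes, 3 were highest on untreated WKY replicate 3, where the list's median deviation, 1.03, was the highest of the 20 arrays. Of the other lists, in the 6 comparisons the intestinal list had Nts higher and Cck lower in SHR and the brown adipocyte list had Ppargc1a lower in SHR. Nts encodes the gut peptide neurotensin, Cck cholecystokinin and Ppargc1a a regulator of mitochondrial genes. The differences were 2.15 ± 0.51, -1.54 ± 0.25 and -1.37 ± 0.32 (SE, adjusted p = 0.0392, 0.00289 and 0.0351). Members left out, 15 of the 20 lists had 0 called genes by limma in any comparison: noradrenergic, cholinergic and enteric, sensory, chromaffin, Schwann cell, pancreatic endocrine, exocrine pancreas, Cajal cell, lymphocyte, mesothelium, smooth muscle, endothelium, white adipocyte, ion channel and other release genes. Counting a gene once per list, 17 of their 120 tested entries had an unadjusted p under 0.05 for SHR against untreated WKY (14.2%, against 14% of all tested genes), 21 for SHRSP (17.5%, against 16.7%), 26 for 2K1C (21.7%, against 22%) and 22 for 1K1C (18.3%, against 9.09%). For SHRSP against SHR there was 1 (0.833%, against 3.56%), and for 1K1C against 2K1C there were 22 (18.3%, against 21.5%). Apart from 1K1C against untreated WKY, these shares lay near or below those of all tested genes. As 0% to 2.39% of all tested genes were called per comparison, the 0 called genes of those 15 lists are not read as a result.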

How the data were processed

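Total RNA of 20 whole mesenteric arteries was labelled with Cy3 and hybridised to single-colour Agilent arrays, per the labels' protocols. The deposited scanner files hold the processed signal intensity of each spot on a linear scale, which the scanner software (Agilent Feature Extraction 10.7.3.1 in the submitters' processing notes) had already corrected for background, per the file headers. The deposited value table held the same intensity, with no difference for any spot, unscaled between arrays (array medians of the authors' values ran from 83.1 to 185).

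Spots marked as control or outlier were left out and spots of a probe were averaged (30367 probes). Log2 signals minus the array's 75th percentile were fitted over 5 groups with limma (lmFit, eBayes; version 3.58.1; R 4.3.3), without covariates, two-sided, Benjamini-Hochberg adjusted over 16424 genes at 0.05. The fit was tested on simulated data. Genes named were those called, those with the widest range in untreated WKY and families. The members and the 20 marker lists were chosen with earlier results of these data known. Alternatives were other normalizations, filters, probe summaries, fits and arrays left out. Slide 1 held 2K1C, slide 2 held 1K1C and untreated WKY, and slide 3 held SHR and SHRSP. Of 44 probes of the members, 41 had an accession in the RefSeq table, with the same symbol.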

Additional observations from a re-analysis of the deposited data

Results flagged for a closer look

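Single arrays that stood apart within a group of 4 were marked with Dixon's ratio, the gap to the nearest array over the group's range, where it was above Dixon's 95% critical value. Of 185 pairs of gene and group, 16 were marked, where chance marks about 1 in 20 independent groups. The genes were chosen by these signals and move together, so the pairs are not independent and the count is not read against that rate. In 12 of the 16, 2K1C replicate 1 was the highest of 2K1C. The ratio was 0.905 for Syp, 0.895 for Snap25, 0.91 for Elavl2 and 0.896 for Elavl4. It was 0.914 for Nefl, 0.97 for Syt1, 0.986 for Syt4 and 0.838 for Tubb3. It was 0.985 for Ina, 0.972 for Chga, 0.846 for Caly and 0.901 for Cplx1. Nefm (0.881) and Snph (0.952) were marked for SHR replicate 1 as the lowest of SHR, at -6.75 and -6.41. Snap25 (0.841) was marked for SHRSP replicate 1, at -7.67, where no SHRSP array was well above background. Scg2 (0.878) was marked for untreated WKY replicate 4, at -5.68 against 1.81 to 2.86 on the other untreated WKY arrays.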

How the results depend on the processing

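The counts of members called lower against untreated WKY depended on the settings. In SHR the count was 5, and it was 1 with the deposited values without scaling, 3 with no filter on dim probes, 3 with only probes well above background on all arrays and 0 in the fit of the compared groups alone. In SHRSP it was 7, and it was 2, 3 and 0 with the deposited values, the strict filter and the fit of the compared groups alone. Both counts were 0 without the 4 arrays with high neuronal signal, a setting chosen after seeing the data. Leaving out 1 array at a time gave 0 to 16 in SHR, 1 to 17 in SHRSP, 0 to 12 in 2K1C, 0 to 14 in 1K1C, and 0 throughout for SHRSP against SHR and 1K1C against 2K1C. The highest count in each of the 4 came without untreated WKY replicate 4. Nothing is read from these counts, since the share of all tested genes called in each such fit is not given here. The strict filter tests fewer genes. The fits of the compared groups alone hold fewer arrays and take the spread from those groups only. The median SD of the 22 tested genes was 2.17 in untreated WKY, 0.54 in SHR and 0.41 in SHRSP. The causes of the changes in count were not tested. The counts under quantile normalization, normexp, median scaling, the mean of all probes and the trend and robust prior stayed within 1.5 times, as did 0 in the other 4 comparisons under every setting other than an array left out. None of 16 named differences changed sign in 293 fits. With the replicate number as a block the counts were 6 in SHR, 6 in SHRSP and 0 in the other 4. The numbers did not pair the arrays: correlations of same-numbered arrays ran from -0.37 to 0.57, and every array of a comparison correlated best with its own number in none of the 6, the nearest being SHRSP against untreated WKY with 7 of 8 arrays and correlations of 0.02 to 0.23. Probes not well above background give only bounds, which limits the 15 untested members.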
